A study of Mus musculus with 4 samples.

Results

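The 10 genes described here encode the 5 Rel subunits of the transcription factor NF-kB (Rela, Relb, Rel, Nfkb1 and Nfkb2) and 5 proteins of the IkB family that bind them (Nfkbia, Nfkbib, Nfkbie, Nfkbiz and Bcl3). They were chosen by name and all 10 were found among the 21883 protein-coding genes of the gene table, whose assembly is GRCm38.p6, the same build as the mm10 of the peak lists. A pair of histone marks had been mapped by chromatin immunoprecipitation sequencing in peritoneal macrophages of C57BL/6 mice 8 weeks old, elicited with thioglycollate broth and kept in dishes for 24 h, either with LPS (lipopolysaccharide, a cell wall component of Gram-negative bacteria) or with PBS (phosphate-buffered saline). The 4 groups were H3K4me3 with LPS, H3K4me3 with PBS, H3K9me3 with LPS and H3K9me3 with PBS, and all came from elicited, adherent cells. The labels name no other allele, strain or agent, and do not say how many animals gave the cells of a library. Since each group was 1 library, no difference between LPS and PBS could be tested, and every comparison is one of libraries.

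NF-kB is a dimer of Rel proteins that IkB proteins hold in the cytoplasm of resting cells. Bacterial LPS acts through Toll-like receptor 4 and a kinase complex that marks the IkB proteins for destruction, after which the dimers enter the nucleus and switch on inflammatory genes, genes of their own inhibitors among them. H3K4me3 sits on the nucleosomes around active and poised gene starts, and H3K9me3 is known for heterochromatin and silenced repeats.

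Filtered tags numbered 26748289 with LPS and 29681491 with PBS for H3K4me3, and 28586946 with LPS and 27727997 with PBS for H3K9me3. Among all genes the H3K4me3 ratio of LPS to PBS at gene ends had a median log2 value of -0.36 (quartiles -0.53 and -0.22; 13147 genes with peaks in both lists), and per covered kb of -0.21, so each ratio below is to be read against that shift. Of 8 macrophage markers, 7 had an H3K4me3 peak at a gene end in both lists and 1 with LPS only, with 78.9 tags per 1000000 filtered tags in sum with LPS and 74.1 with PBS. Of 5 T cell markers 1 had a peak in both lists and 4 in neither (8.08 with LPS, 9.33 with PBS, on the same scale). Of 5 B cell markers 2 had one in both and 3 in neither (11.2 and 13.2). Of 5 neutrophil markers 1 was listed with LPS only and 4 (Ly6g, Ngp, Elane and Mpo) in neither (2.09 and 0). Of 5 mesothelial and fibroblast markers 1 was listed in both, 3 with PBS only and 1 in neither (5.23 and 13.9). Other cells of the lavage also use NF-kB genes, and their part in the values below was not tested. In such bulk chromatin a different mix of cells and a different level per cell cannot be told apart.

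The promoter sequences of 4 members are shown as examples. The windows of Nfkb2 and Rel have a kappa B match that both peaks cover, and that of Nfkbia has one that the PBS peak alone covers. The window of Nfkbib has no match and lies partly in the gap between a pair of peaks and partly inside a peak. Each window holds the 250 bases before an annotated start and the 50 from it on, read on the strand of the gene. They are RefSeq sequences of GRCm38.p6. Capitals mark matches to the kappa B consensus, the DNA element that Rel dimers bind, searched on both strands. The windows are chr12:55492598-55492897 on the minus strand for Nfkbia, chr19:46304487-46304786 on the plus strand for Nfkb2 (the most upstream of its 3 windows), chr11:23770920-23771219 on the minus strand for Rel and chr7:28766595-28766894 on the minus strand for Nfkbib.
Nfkbia: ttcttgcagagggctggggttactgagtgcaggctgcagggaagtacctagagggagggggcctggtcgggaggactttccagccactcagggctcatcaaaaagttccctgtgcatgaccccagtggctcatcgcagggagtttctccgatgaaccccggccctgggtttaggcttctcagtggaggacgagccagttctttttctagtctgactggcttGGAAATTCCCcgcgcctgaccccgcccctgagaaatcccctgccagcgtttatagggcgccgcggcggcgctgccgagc
Nfkb2: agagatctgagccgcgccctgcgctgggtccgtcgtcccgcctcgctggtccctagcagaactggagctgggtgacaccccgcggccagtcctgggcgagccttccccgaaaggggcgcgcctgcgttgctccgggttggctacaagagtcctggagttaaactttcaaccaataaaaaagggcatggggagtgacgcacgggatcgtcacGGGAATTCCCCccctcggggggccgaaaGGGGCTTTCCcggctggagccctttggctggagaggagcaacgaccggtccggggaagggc
Rel: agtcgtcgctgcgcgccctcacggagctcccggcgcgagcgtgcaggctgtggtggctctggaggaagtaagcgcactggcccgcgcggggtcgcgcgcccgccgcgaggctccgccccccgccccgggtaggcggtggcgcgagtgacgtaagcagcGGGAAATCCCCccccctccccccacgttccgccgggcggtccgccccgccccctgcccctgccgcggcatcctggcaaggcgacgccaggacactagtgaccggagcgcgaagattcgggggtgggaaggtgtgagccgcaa
Nfkbib: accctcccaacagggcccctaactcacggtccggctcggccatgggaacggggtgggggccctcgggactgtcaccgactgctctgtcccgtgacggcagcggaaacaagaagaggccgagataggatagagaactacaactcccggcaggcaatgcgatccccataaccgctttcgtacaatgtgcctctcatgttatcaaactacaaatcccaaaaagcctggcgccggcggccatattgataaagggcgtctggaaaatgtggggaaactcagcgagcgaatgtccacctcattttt

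Of the 10 members 7 were in the promoter table, with 9 windows in all (Nfkb2 has 3, of which the last 2 overlap), and Nfkb1, Relb and Nfkbiz were not. A match to the kappa B consensus was in 7 of the 9 windows, from 5 of the 7 members, against 8.46% of all 32851 windows. All 3 windows of Nfkb2 are among the 7, and its last 2 share the match GGGACTTTCC, so that site is counted in both. The windows of Rela and Nfkbib had no consensus match. The match of Nfkbia lay 29 to 20 bases before the start (GGAAATTCCC), that of Nfkbie 106 to 97 bases before it (GGGGGATTCC) and that of Bcl3 over bases 3 to 12 counted from the start (GGGAAGTCCC). All 9 windows had more CpG dinucleotides, 15 to 42, than the median window, which had 7. All 9 were also above the median window in percent G or C (52.7), and the shares of matches were not adjusted for composition. A match is a run of letters and shows no binding.

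At the gene ends, taken as 1 kb on either side of each outer end of a gene, 9 of the 10 members had an H3K4me3 peak in both lists and 0 in 1 list alone. Nfkb2 was the exception, since its annotated starts lie more than 1 kb from either outer end, and it is described at those starts. Among all genes 60.1% had a peak in both lists, 1.26% with LPS only and 3.14% with PBS only. The 9 members had a median log2 ratio of LPS to PBS of -0.49, against -0.36 for all genes, with 4 members above and 5 below the median of all genes. That direction depended on which members and peaks were counted. With 2.5 kb, which takes in all 10 members, the median was -0.22 against -0.36 for all genes. Nfkb2 entered there at 0.57, Nfkbiz went from -0.78 to 0.34, and the other ratios were unchanged. At the annotated starts of the 7 members in the promoter table the median was -0.08 against -0.37. That set had Nfkb2 but not Nfkb1, Relb and Nfkbiz, and the ratios of the other members were unchanged. Per covered kb the median of the 9 members at gene ends was -0.42, against -0.21, with 3 of 9 above. The 4 Rel subunits with a value had a median of -0.43, and of -0.47 per covered kb with 0 of 4 above the median of all genes. The 5 IkB genes had a median of -0.57, and of -0.17 per covered kb with 3 of 5 above. The order of the groups was thus different on each scale. With at least 100 tags required, 1 of the 9, Nfkbia, was at least 2-fold lower with LPS and 0 were 2-fold higher. Among all genes 3.65% were 2-fold lower with LPS, 0.37% were 2-fold higher and 4.02% were 2-fold apart in either direction.

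**Figure D1:**
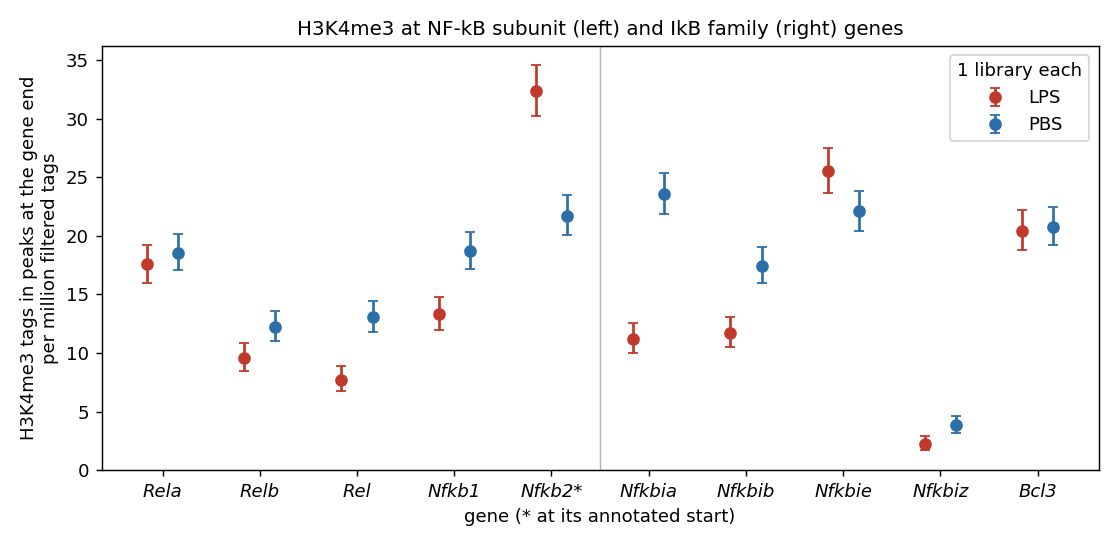
Tags in the H3K4me3 peaks at the end of each gene per 1000000 filtered tags (Nfkb2 at its annotated start), LPS left of PBS, 1 library each. Bars are exact 95% Poisson intervals and cover counting error alone. Nfkb2 and Nfkbie lie higher with LPS, Nfkbia shows the widest gap in the other direction, and Nfkbiz has the fewest tags. The larger peak of Nfkbiz, 16.2 kb inside its gene end, is not counted.

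Rela encodes p65, the subunit that carries much of the activating power of NF-kB in macrophages (chromosome 19, 5637442 to 5648134). It had 470 tags over 3.43 kb with LPS and 551 over 2.71 kb with PBS. The log2 ratio was -0.08 (95% counting interval -0.26 to 0.10), above the median of all genes, but -0.42 per covered kb, below it. The LPS peak reached 2.59 kb past the start, the PBS peak 1.79 kb, and the LPS peak held fewer tags per kb. Its promoter window lay wholly inside the peak of both lists.

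Relb encodes the partner of the processed Nfkb2 product in the slower, non-canonical branch (chromosome 7, 19606217 to 19629438). There were 256 tags in 2 LPS peaks, of 164 and 92 tags, and 364 tags in 1 PBS peak that met both. The log2 ratio was -0.36 (-0.59 to -0.12), at the median of all genes. Where the peak's summit had to lie in the window, or its score to reach 100, the weaker LPS peak dropped out and the ratio was -1.00013, just past the 2-fold mark. Per covered kb it was -0.62.

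Rel encodes c-Rel, a subunit known for cytokine genes such as those of interleukin 12 (chromosome 11, 23736847 to 23770969). It had 207 tags over 1.92 kb with LPS and 389 over 2.33 kb with PBS, a log2 ratio of -0.76 (-1.01 to -0.51), which exceeded the ratio of 9.49% of all genes. Per covered kb the ratio was -0.48. Both peaks covered the whole promoter window with its GGGAAATCCC, and their summits lay 117 bases (LPS) and 61 bases (PBS) past the start.

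Nfkb1 encodes the precursor whose processed part, p50, pairs with Rela (chromosome 3, 135584655 to 135691969). Its end at the higher coordinate had 356 tags over 1.98 kb with LPS and 556 over 2.04 kb with PBS, a log2 ratio of -0.49 (-0.69 to -0.30) and of -0.45 per covered kb. The peaks were of nearly the same width, and their summits were 804 and 785 bases inside the gene end. In tags per covered kb and 1000000 filtered tags this was the highest level of the 10 members in both libraries, 6.73 with LPS and 9.19 with PBS, where the medians of all genes were 4.47 and 5.14.

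Nfkb2 encodes the precursor of the other processed subunit, p52 (chromosome 19, 46300994 to 46312400). Around its annotated starts 1 peak was listed with LPS, of 865 tags over 7.56 kb, and 1 with PBS, of 645 tags over 3.69 kb. The log2 ratio was 0.57 (0.42 to 0.72) in tags, the highest of the 10 members, and -0.46 per covered kb. The sign thus differed between tags and tags per covered kb. Just 6 of the 28505 LPS peaks, this one included, were as wide or wider, whereas 798 of the 31398 PBS peaks were as wide as the PBS peak.

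The summits at Nfkb2 lay 295 bases (LPS) and 261 bases (PBS) past the most upstream start. The peak ended 5.96 kb past that start with LPS, against 2.36 kb with PBS, and it began at -1597 bases with LPS and at -1334 with PBS, counted from the start. The caller's own score was 78.7 for the LPS peak, which placed it 19447th of 28505 in its list, and 568.9 for the PBS peak. All 3 promoter windows, with the matches GGGAATTCCC and GGGACTTTCC among others, were inside both peaks. The long noncoding gene 4833438C02Rik (46303585 to 46305629) overlaps the same region, so the peak cannot be assigned to Nfkb2 alone.

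**Figure D2:**
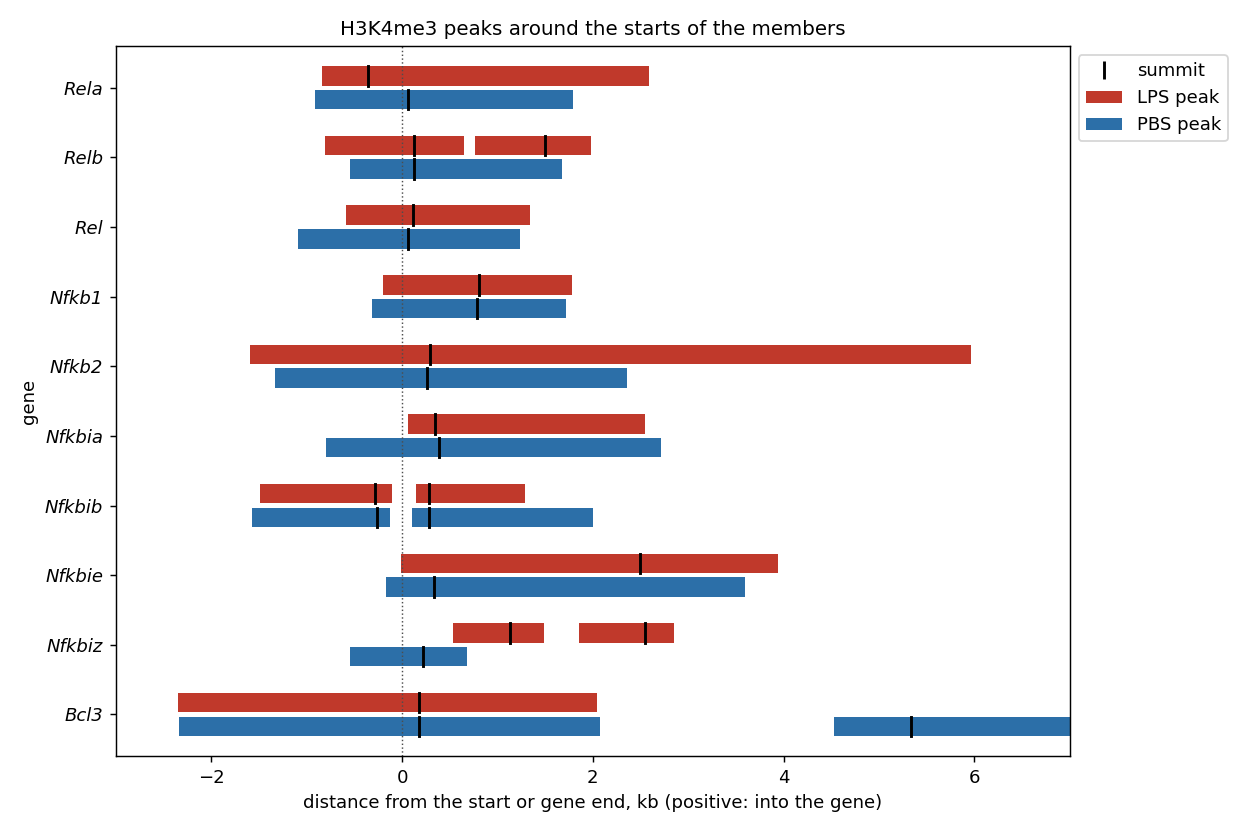
H3K4me3 peaks around each member, LPS above PBS, as distance in kb from the annotated start, or from the gene end for Relb, Nfkb1 and Nfkbiz. Positive values run into the gene and black ticks mark summits. The LPS peak of Nfkb2 runs to 5.96 kb, that of Nfkbia begins 0.061 kb inside the start, and at Nfkbiz the LPS peaks lie inside the gene. The larger peak of Nfkbiz, 16.2 kb inside its gene end, is beyond the range drawn.

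Nfkbia encodes IkB alpha, the inhibitor that is destroyed within minutes of LPS and made again as an NF-kB target (chromosome 12, 55489409 to 55492647). It had 300 tags over 2.49 kb with LPS and 700 over 3.51 kb with PBS. The log2 ratio was -1.07 (-1.27 to -0.88), the lowest of the 10 members and higher than that of 2.97% of all genes. Per covered kb it was -0.57, and relative to the median of all genes -0.71. The extents differed more on the promoter side than inside the gene. There the LPS peak ended 61 bases inside the start, while the PBS peak ran on to position -799 and reached the long noncoding gene Gm36634, whose end is 648 bases away. The PBS peak covered all 300 bases of the printed promoter and the LPS peak 0, so the kappa B match GGAAATTCCC lay in the PBS peak alone. A peak edge depends on the caller's threshold, and the LPS tags beyond this edge are not known. The summits, at 343 bases (LPS) and 385 bases (PBS) past the start, were close together.

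Nfkbib encodes IkB beta, an inhibitor that is resynthesised more slowly (chromosome 7, 28758251 to 28766644). Its start lies 108 bases from the outer end of Sirt2 at the lower coordinate (28766752). Sirt2 is a deacetylase gene. Both lists had a peak on either side, so the values belong to both genes. The peak on the Nfkbib side had 148 tags with LPS and 283 with PBS (log2 ratio -0.79, -1.08 to -0.49), and the one on the Sirt2 side 166 and 235 (-0.35, -0.65 to -0.06). Together they gave 314 tags with LPS and 518 with PBS, a ratio of -0.57 (-0.78 to -0.37). Between them lay a gap in both libraries. Of the 300 promoter bases printed, 148 were in an LPS peak and 122 in a PBS peak, at the end towards Sirt2.

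Nfkbie encodes IkB epsilon, a feedback inhibitor of Rela and Rel dimers (chromosome 17, 45555700 to 45563169). It had 683 tags over 3.95 kb with LPS and 656 over 3.76 kb with PBS. Among the 9 members measured at a gene end it alone had a positive log2 ratio, 0.21 (0.05 to 0.37), above that of 96.0% of all genes, and it stayed positive per covered kb (0.14). The summit was 2.49 kb past the start with LPS and 0.33 kb past it with PBS, within peaks that both covered the stretch from the start to 3.59 kb past it. Where the summit had to lie within 1 kb of a gene end, the value moved to the other end, beside Slc35b2, and was -0.49. The match GGGGGATTCC was inside the PBS peak and outside the LPS peak, which began 6 bases before the start. The LPS tags at that match are not known.

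Bcl3 encodes a nuclear IkB protein that joins p50 and p52 dimers on DNA (chromosome 7, 19808462 to 19822824). Around its start the values of the libraries were close, with 547 tags over 4.39 kb with LPS and 617 over 4.42 kb with PBS (log2 ratio -0.02, -0.19 to 0.14, and -0.01 per covered kb). The ratio in tags was above that of 89.9% of all genes. The summits of these peaks were 178 and 174 bases past the start. Further in, from 4.52 to 7.31 kb past the start, the PBS list had a peak of 330 tags and a score of 170.6 that met no LPS peak. Of the 8813 PBS peaks with no LPS counterpart, 44 had as many tags. It overlaps the long noncoding gene Gm16174 (19816585 to 19818618). The LPS tags in that stretch are not known.

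Nfkbiz encodes IkB zeta, a nuclear IkB protein needed for secondary response genes such as Il6 (chromosome 16, 55811375 to 55838954). At its end at the higher coordinate it had 60 tags over 0.95 kb with LPS and 114 over 1.23 kb with PBS, a log2 ratio of -0.78 (-1.25 to -0.31) and of -0.40 per covered kb. The peaks met over a short stretch. The LPS peak had its summit 1.14 kb inside the gene end and the PBS peak 0.22 kb inside it, and a further LPS peak of 70 tags, 1.86 to 2.85 kb inside, met no PBS peak. With a window of 2.5 kb that peak was counted and the ratio became 0.34. The larger H3K4me3 peak of the gene lay 16.2 kb inside this end, with 242 tags over 1.48 kb with LPS and 492 over 2.51 kb with PBS (-0.87, -1.10 to -0.65; -0.11 per covered kb). A PBS peak at the gene end was also within 1 kb of Nxpe3.

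**Figure D3:**
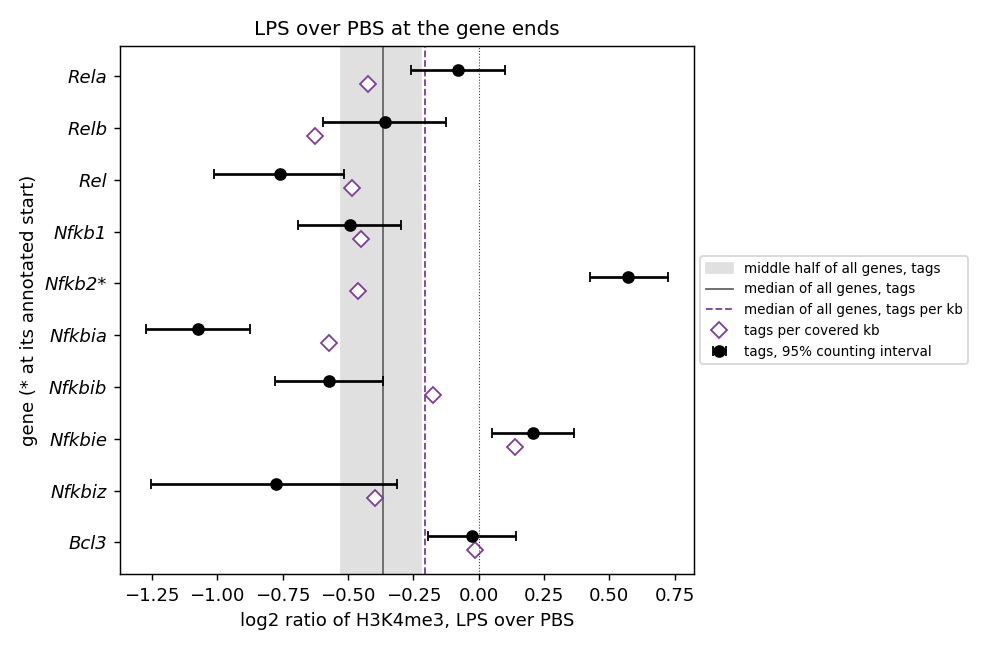
Log2 ratio of LPS to PBS at the end of each gene (Nfkb2 at its annotated start), in tags with exact 95% counting intervals (black) and in tags per covered kb (open diamonds). The grey band holds the middle 50% of all genes in tags. Nfkb2 at 0.57 and Nfkbia at -1.07 are the ends of the range in tags, and per covered kb the members lie between -0.62 and 0.14.

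The covered length was larger with LPS at 3 of the 9 gene ends (Rela, Relb and Nfkbie), against 28% of all genes, and larger also at the starts of Nfkb2 (log2 width ratio 1.03). It was smaller with LPS at Nfkbia, Nfkbib, Nfkbiz, Rel, Nfkb1 and Bcl3, with the closest pair of values at Bcl3 (4.39 kb and 4.42 kb). The medians over the 9 were 2.54 kb with LPS and 2.71 kb with PBS, wider than the 1.61 kb and 1.83 kb of all genes. Bcl3 and Nfkbie were wider with LPS than 97.7% and 96.4% of the gene ends with a peak in both lists, while Nfkbiz exceeded 13.8%.

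**Figure D4:**
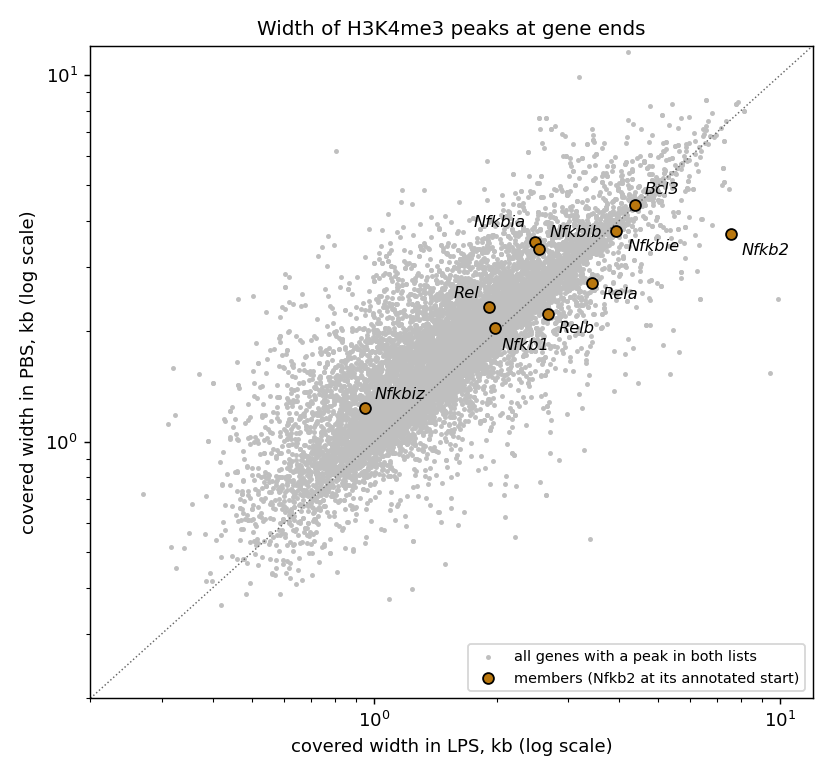
Length covered by H3K4me3 peaks at gene ends in LPS (x axis) and PBS (y axis), in kb on log scales, for all genes with a peak in both lists (grey) and the members (named). Points under the dotted line were wider with LPS. Nfkb2, at 7.56 kb with LPS and 3.69 kb with PBS, stands well under the line, and Nfkbia and Nfkbib lie above it.

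In density, as tags per covered kb and 1000000 filtered tags, Nfkbie (6.47), Rela (5.12), Bcl3 (4.66), Nfkbib (4.62) and Nfkbia (4.51) followed Nfkb1 with LPS, and Nfkb2 (4.28), Rel (4.03), Relb (3.58) and Nfkbiz (2.36) were below the median of all genes. With PBS the order after Nfkb1 was Rela (6.86), Nfkbia (6.71), Nfkb2 (5.88), Nfkbie (5.88), Rel (5.63), Relb (5.51), Nfkbib (5.22), Bcl3 (4.704) and Nfkbiz (3.11). At the places measured, Nfkb1 was thus first and Nfkbiz last in each library. For Nfkbiz this covers the gene end alone. Its larger peak, 16.2 kb inside, was not counted here (242 tags over 1.48 kb with LPS, 492 over 2.51 kb with PBS). The last place therefore does not describe the whole gene. With 1 library there is no spread between samples to tell neighbours in these orders apart.

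Apart from Nfkb2, 4 members had H3K4me3 peaks inside the gene beyond those at their ends. Nfkb1 had 6 such peaks with LPS and 3 with PBS, and each of the 3 PBS peaks met an LPS peak. The shared ones, at 8.85 to 9.599, 86.7 to 87.5 and 94.9 to 95.4 kb from the gene end, had 43, 36 and 35 tags with LPS and 34, 57 and 47 with PBS. Those with LPS alone had 43, 55 and 51 tags and scores of 54.9, 58.3 and 76.4, beside scores of 81.2, 61.1 and 74.8 for the shared peaks in the LPS list. The tags that PBS had in regions listed with LPS alone are not known. Relb had 1 weak internal peak, of 24 tags, in the LPS list. Those of Nfkbiz and Bcl3 are given above.

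**Figure D5:**
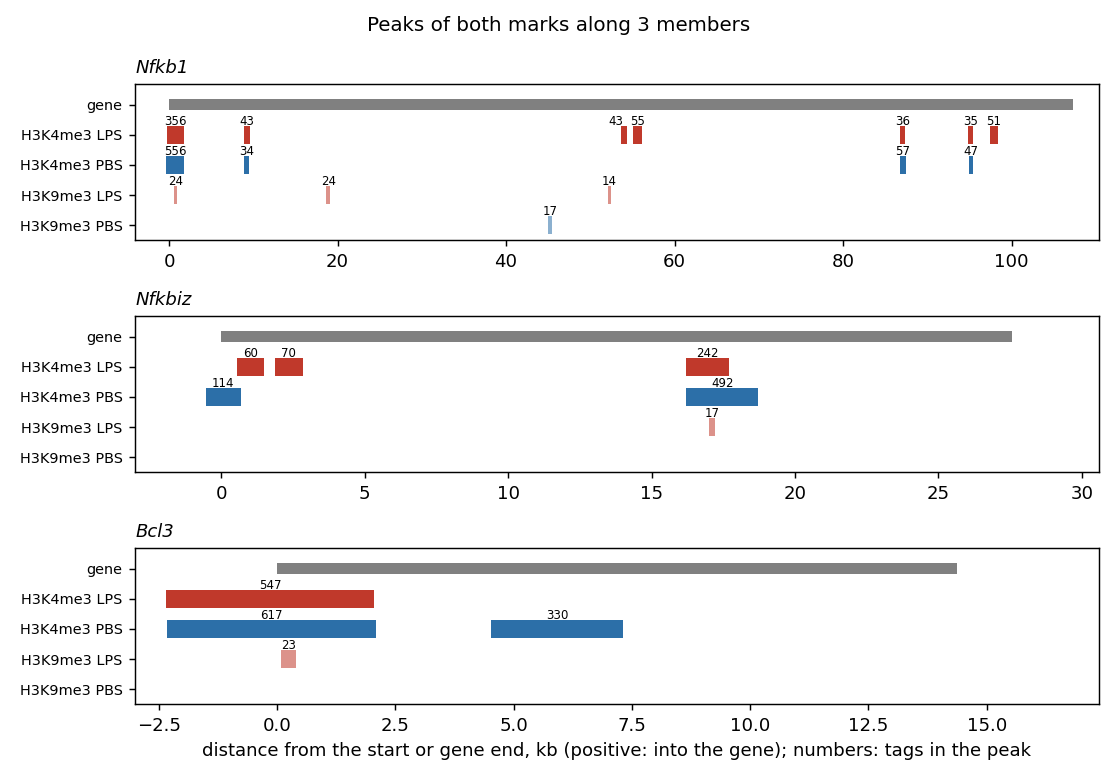
Peaks of both marks along Nfkb1, Nfkbiz and Bcl3, in kb from the gene end (Bcl3 from its annotated start), with the tags of each peak above it. Narrow peaks are drawn at a minimum width of 0.4% of the gene. Internal H3K4me3 peaks are more numerous with LPS at Nfkb1, whereas at Bcl3 one is listed with PBS alone.

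With LPS 4 of the 10 members had an H3K9me3 peak on the gene body (Nfkb1, Nfkbia, Nfkbiz and Bcl3), against 26.6% of all genes, and with PBS 2 (Nfkb1 and Nfkbia), against 24.5%. In either list it was 4 members, against 35% of all genes, with no adjustment for gene length. The 6 LPS peaks held 14 to 33 tags and the 2 PBS peaks 17 and 18, where the median peaks of the lists had 17 and 16 tags and the weakest 12 and 11. The other 6 members, Rela, Relb, Rel, Nfkb2, Nfkbib and Nfkbie, had none listed on the body, and levels under the caller's threshold are not known.

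At Nfkbia both lists had an H3K9me3 peak, of 33 tags with LPS (295 to 718 bases past the start) and of 18 with PBS (248 to 544 bases past it). They overlapped, and both sat within the H3K4me3 peak of the same treatment. With LPS the peaks of Bcl3 (23 tags) and Nfkbiz (17 tags), and 1 of the 3 at Nfkb1 (24 tags), also sat on H3K4me3 peaks. Altogether 4 of the 6 LPS peaks on the members touched an LPS H3K4me3 peak, against 33.7% of all LPS H3K9me3 peaks, and 1 of the 2 PBS peaks touched a PBS H3K4me3 peak, against 22.4%. These shares include peaks away from genes and on genes without H3K4me3, so the sets are unlike. The caller's fragment length for H3K9me3 was 71 bp with LPS and 66 bp with PBS, beside 149 and 142 bp for H3K4me3, and its part in these narrow peaks was not tested.

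The other 22 genes listed for the pathway, the IkB family gene Nfkbid among them, were its kinases, adaptors, ubiquitin ligases and further regulators. Of them 21 had an H3K4me3 peak at a gene end in both lists and 1, Commd1, in neither. The median log2 ratio of the 21 was -0.40, against -0.36 for all genes, with 9 above that median and 12 below it, and 0 were at least 2-fold apart. They ranged from -0.76 to 0.03, a narrower span than the -1.07 to 0.21 of the 9 members at gene ends. Per covered kb their median was -0.29, against -0.21 for all genes, with 6 of 21 above.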

How the data were processed

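Per the labels, H3K4me3 and H3K9me3 were profiled in 4 samples, 1 library for each mark and treatment. Per the file headers, the authors called peaks in each library separately with MACS 1.4.2, without a control library, at a p threshold of 1e-05, keeping at most 1 tag at a position. The submitters' processing notes also name CASAVA 1.4, Bowtie 0.12.8, DiffBind and the build mm10. The deposited lists give for each peak a count of tags, a score (minus 10 times the base 10 logarithm of the caller's p-value) and a fold over the local background. The score was used within lists only, and the caller's fold was not used.

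Counts were divided by filtered tags with Python 3.11.15 and pandas 2.3.3. A peak was assigned to a gene when any part lay within 1 kb of an outer gene end, and the end with more tags was kept. Lists were merged where peaks overlapped or touched. Over merged regions the ratio of each member at a gene end was the same as at the end itself. Exact 95% Clopper-Pearson intervals of ratios cover counting error only, and tags are not independent molecules. A 2-fold call needed 100 tags in both libraries together. No test between treatments was possible. A region that is not listed was under the caller's threshold. Steps were tested on simulated data. All 10 members were named in the text, and other pathway genes were to be named when 2-fold apart. The members and lists were chosen with earlier results of these data known.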

Additional observations from a re-analysis of the deposited data

How the results depend on the processing

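No paired analysis was possible because each group held 1 library, and for the same reason no library could be left out. The count of members with H3K4me3 peaks at a gene end in both lists (9) was 8 to 10 under alternatives covering all 10. At annotated starts, known for 7 members, all 7 had such peaks. The median log2 ratio (-0.49) kept its sign under all alternatives, between -0.53 and -0.08. Against all genes it turned, however: it lay above theirs with a window of 2.5 kb (-0.22 against -0.36) and at annotated starts (-0.08 against -0.37, 7 members). The 1 member at least 2-fold apart, Nfkbia, became 2 with scores of 100 or more or with summits in the window (Relb joined at -1.00013), and 0 per covered kb (Nfkbia at -0.57), with all tags of the headers (-0.97) or with the median gene at 0 (-0.71). Signs turned at Nfkbiz with a window of 2.5 kb (0.34, where a further LPS peak is counted), at Nfkbie with summits in the window (-0.49, at its other end) and at Relb with the median gene at 0 (0.0065). Rela and Bcl3, whose intervals had included 0, became positive with that scaling (0.28 and 0.34) and with all tags of the headers (0.02 and 0.08). Leaving out these 2 scalings, which move all genes alike, 40 of 49 single-gene values stayed within their counting interval, 7 left it and 2 turned. Most of the 40 equalled the main value because the alternative counted the same peaks, so that count is no measure of stability. Per covered kb, where every value could change, only Nfkb1, Nfkbie, Nfkbiz and Bcl3 stayed within the interval. Adding Nfkb2 at its annotated start, an alternative chosen after seeing the data, gave 10 members and a median of -0.43. For H3K9me3, the 4 members with a peak on the body in either list became 8 with 5 kb on either side (42.6% of all genes) and 2 with scores of 100 or more (10.3%). The 4 of the LPS list became 2 with such scores (7.49%), and the 2 of the PBS list became 5 with the flanks (29.9%) and 0 with such scores (6.36%). H3K9me3 peaks of 14 to 33 tags have wide counting intervals.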

Other observations

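Of the members with a further H3K4me3 peak at the end opposite the one described, Rela had 66 tags over 0.95 kb with LPS and 128 over 1.21 kb with PBS, 11.3 to 12.6 kb past its start (log2 ratio -0.81, counting interval -1.26 to -0.37). The corresponding peak beyond Nfkbie, which is also within 1 kb of Slc35b2, had 298 tags with LPS and 463 with PBS (-0.49, -0.70 to -0.27). In tags the ratio at both genes was lower at this end than at the start. Per covered kb the values at this end and at the start were -0.47 and -0.42 at Rela and -0.46 and 0.14 at Nfkbie. Outside the gene bodies, but within 1 kb of them, H3K9me3 peaks were listed beside Nfkbib (13 tags with LPS, 15 with PBS, on the Sirt2 side, over 80 and 128 of the 300 promoter bases), beside Nfkb2 (33 tags with LPS, near Psd) and beside Nfkbie (15 tags with PBS, near Slc35b2).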
